A study of Homo sapiens with 4 samples.

Results

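The sites described here are the loci that anti-GFP ChIP-seq called as peaks in every one of 4 libraries, whichever Smad was tagged and whether or not TGFβ-1 was added. They were the peaks of the LAP-Smad3 list after TGFβ-1 that overlapped, by at least 1 bp, a peak in each of the other 3 lists. This held for 313 of 62551 peaks, 0.500% of the list, and the 4 lists together held 104156 peaks. The members were chosen by the positions of called peaks, that is, by the read enrichment of these same libraries. Taken alone, the LAP-Smad2 TGFβ-1 list overlapped 10.6% of the LAP-Smad3 TGFβ-1 peaks, the LAP-Smad2 untreated list 7.27% and the LAP-Smad3 untreated list 1.10%. MDA-MB-231 cells, a line from a human breast tumour, were given a bacterial artificial chromosome (BAC) with Smad2 or with Smad3 under its native control elements and with a C-terminal LAP tag that contains GFP. Each line was a Geneticin-selected and GFP-sorted population that still held its endogenous Smads, and it was left untreated or received 10 ng/mL TGFβ-1 for 2 h. Each of the 4 conditions had 1 library, so nothing below has a replicate check and no p-value is given. In the untreated pair, deposited peak names and labels disagree on which Smad was tagged. The untreated lists are called by their labels here, and the 313 sites are the same whichever untreated list is which.

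Smad2 and Smad3 are the receptor-regulated Smads of the TGFβ pathway. The activated receptor phosphorylates them, they join Smad4, and the complex enters the nucleus, where Smad3 contacts the short element CAGAC and both proteins depend on partner factors. A ChIP-seq peak, by contrast, also depends on where its short reads can be placed. Sequence present in many copies, such as the ribosomal DNA (rDNA) arrays, satellite DNA beside centromeres and tandem gene families, is represented in the reference by fewer copies than a cell holds, or by copies that reads cannot tell apart.

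The repetition within hg38 can be read from sequences under the sites, although copy number in the cells was not measured. The first sequence is the 100 bases at the summit of the strongest site, chr21:8398723-8398822 on hg38, in the 28S part of a 45S rDNA unit. The capitals mark the central 31 bases, which occurred 8 times in hg38 without alternative sequences.
Strongest site: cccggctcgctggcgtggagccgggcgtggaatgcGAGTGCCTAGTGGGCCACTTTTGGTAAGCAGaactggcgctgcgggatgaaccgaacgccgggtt

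The next sequences set a pair of sites that lie far from the arrays beside the 45S copy that each matches best, with capitals at the bases that differ or are missing from the other copy. The window shown of a site in MIR663AHG is chr20:26208374-26208473 on the plus strand, and its array copy is chr21:8435056-8435156 on the minus strand. The windows differed at 2 of 101 aligned positions. The whole match of this site, over 202 bp, was 94.6% identical.
MIR663AHG site: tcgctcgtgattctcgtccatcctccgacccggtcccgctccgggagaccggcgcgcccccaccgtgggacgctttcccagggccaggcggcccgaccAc
45S copy: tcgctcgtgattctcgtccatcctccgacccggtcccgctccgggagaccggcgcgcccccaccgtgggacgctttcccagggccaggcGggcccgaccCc

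The window shown of the site in an intron of DLG2 is chr11:85483967-85484066, and its array copy is chr21:8214149-8214248, both on the plus strand. The windows differed at 2 of 100 positions. The whole match of this site, over 308 bp, was 88.3% identical.
DLG2 site: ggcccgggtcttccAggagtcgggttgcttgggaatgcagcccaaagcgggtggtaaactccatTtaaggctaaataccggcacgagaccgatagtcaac
45S copy: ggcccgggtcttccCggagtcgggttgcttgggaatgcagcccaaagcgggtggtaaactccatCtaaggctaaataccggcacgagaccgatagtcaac

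The remaining sequences, all on the plus strand, show satellite DNA beside a centromere, a tandem unit and a duplicated gene start. In the satellites the capitals mark GGAAT or its complement ATTCC, and the windows are chr1:125179857-125179956 and chrY:11297847-11297946.
Chromosome 1 site: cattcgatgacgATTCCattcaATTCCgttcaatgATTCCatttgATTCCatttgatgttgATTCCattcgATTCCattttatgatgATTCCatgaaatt
Chromosome Y site: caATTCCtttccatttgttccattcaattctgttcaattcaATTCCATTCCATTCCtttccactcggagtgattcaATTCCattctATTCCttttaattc

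The unit at C1QTNF12 is chr1:1249289-1249354, and the next 66 bases, chr1:1249355-1249420, are the same letter for letter. The window at CTAGE15, chr7:143571525-143571624, is identical over all 100 bases to chr7:144183211-144183310 at CTAGE4.
C1QTNF12 unit: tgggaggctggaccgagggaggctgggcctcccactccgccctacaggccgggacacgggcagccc
CTAGE15 site: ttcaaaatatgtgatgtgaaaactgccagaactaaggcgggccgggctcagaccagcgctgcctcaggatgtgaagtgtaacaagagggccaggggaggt

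The sites lay on all 24 chromosomes, and chromosomes 21 and 1 held the most. Chromosome 21 held 67 of them, 5.82% of all its peaks in the list, and chromosome 1 held 63, or 1.18% of its peaks. Chromosome Y held 4, or 1.41% of its 283 peaks, and chromosome 2, with 4445 peaks in the list, held 6. On chromosome 21, 60 of the 67 sites fell between 8203731 and 8988740 on the short arm. On chromosome 1, 42 sites that shared sequence with each other fell between 125167723 and 143267368, on the centromere-proximal long arm. Further clusters were 12 sites on chromosome 4 between 49108257 and 49711959, beside the centromere, and 12 on chromosome 8 between 85642638 and 85828769. Joining sites within 50 kb of each other left 161 separate loci.

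**Figure D1:**
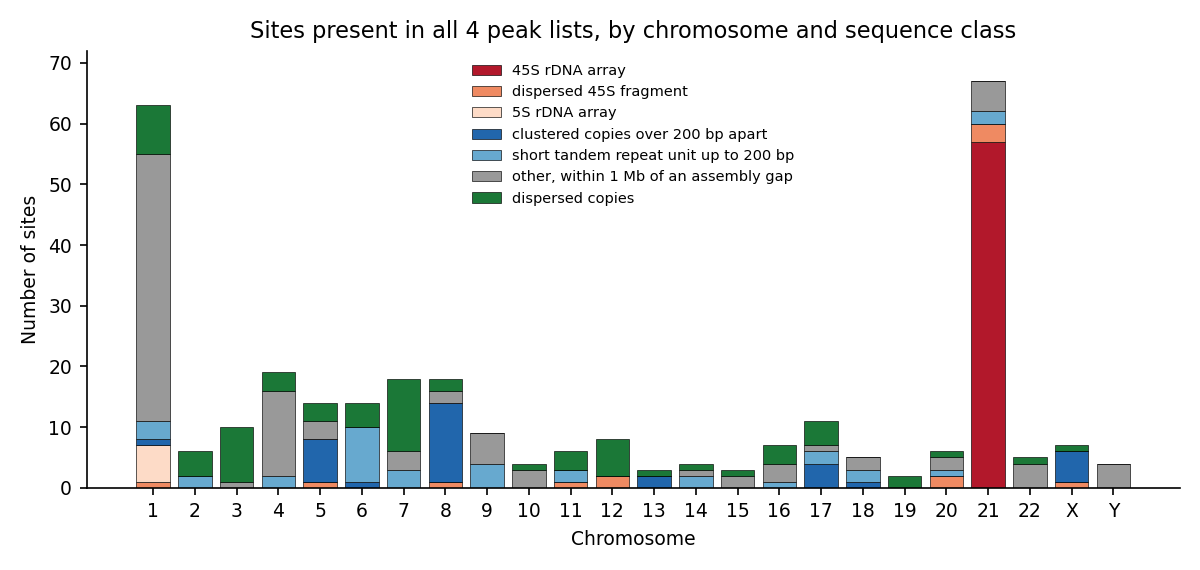
The bars give the number of sites on each chromosome, coloured by sequence class. Chromosomes 21 and 1 stand out with 67 and 63 sites, of which 57 on chromosome 21 lay in the 45S rDNA arrays.

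Assembly gaps were close to many of the sites. A run of at least 10 kb of undetermined bases lay within 100 kb of 152 of the 313 sites, 48.6% (Wilson 95% interval 43.1 to 54.1). Among the other peaks of the list the share was 4.16% (4.001 to 4.315), and among peaks found in 3 of the 4 lists it was 7.54% (6.45 to 8.81). These intervals cover counting error only, and since many sites are copies of each other, the 313 sites are fewer independent sequences than their number.

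A site was called multi-copy when over 50% of its 31-base words occurred more than once in hg38, on either strand and without mismatches. By this definition 296 of the 313 sites were multi-copy, 94.6% (91.5 to 96.6), and 17 were single-copy. In 119 sites every word was repeated, and in no site were at least 90% of the words unique. The lowest repeated share of any site was 12.6%. Among the other peaks of the list 61.9% (61.5 to 62.2) were multi-copy.

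The multi-copy share by itself did not set sites in all 4 lists apart from peaks in 3 lists. It was 58.1% for peaks in 1 list, 81.6% for peaks in 2 lists and 93.9% (92.7 to 94.8) for the 1922 peaks in 3 lists, whose interval overlaps that of the 313 sites. The number of occurrences in hg38 did differ. Of the peaks in 3 lists, 50.5% (48.3 to 52.8) were multi-copy with a median word count over 100, against 28 of the 313 sites, 8.95% (6.26 to 12.6). The words of most sites had few occurrences in hg38: 268 sites, 85.6% (81.3 to 89.1), were multi-copy with a median of up to 100. Of the peaks in 3 lists, 43.3% (41.1 to 45.6) were. These counts are of the reference, which can hold fewer copies of such sequence than a cell. The median over the multi-copy sites was 11 occurrences, and over the other multi-copy peaks of the list it was 129.

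**Figure D2:**
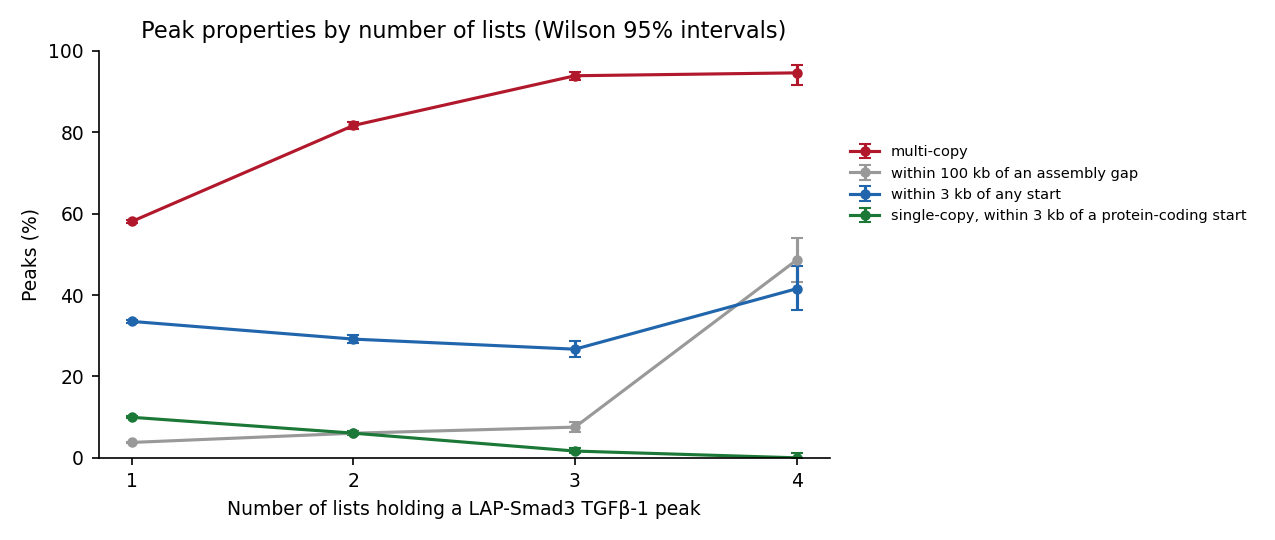
Points give the share of LAP-Smad3 TGFβ-1 peaks with each property, by the number of lists that hold the peak, with Wilson 95% intervals. The multi-copy share was already 93.9% at 3 lists, whereas the share beside assembly gaps rose from 7.54% at 3 lists to 48.6% at 4, and single-copy peaks at protein-coding starts went from 9.96% at 1 list to 0 at 4.

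**Figure D3:**
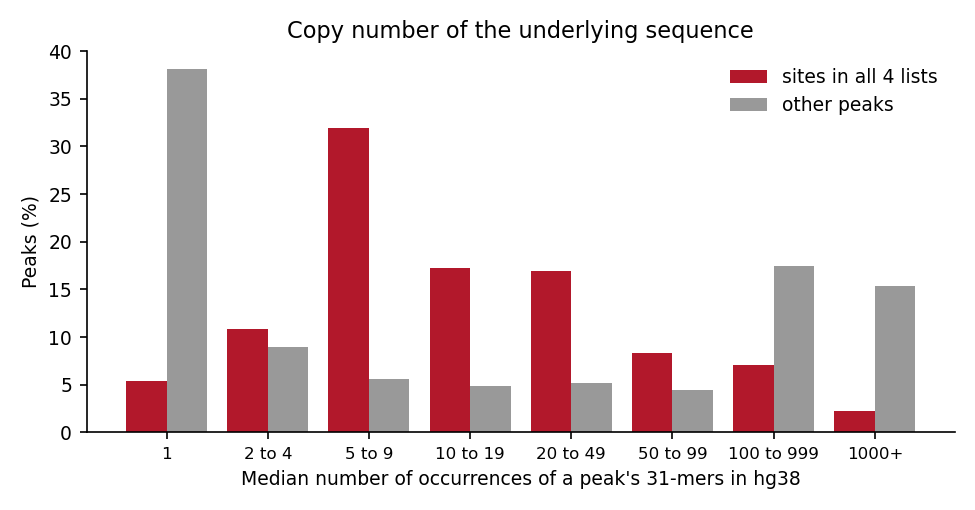
Bars give the share of peaks by the median number of times their 31-base words occur in hg38. The sites in all 4 lists peak at 5 to 9 occurrences (31.9%), while the other peaks of the list are mostly at 1 (38.1%) or at 100 and above.

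Many sites were copies of each other. When sites sharing at least 20% of the words of the smaller site were joined, 313 sites fell into 125 sequence families, of which 78 held a single site. The largest family was the 42 sites of chromosome 1, with median word counts between 18 and 63. The second held 28 sites spread over 16 chromosomes, with a median of 95.5 occurrences and no gene in common. For 132 sites most of the other copies lay within 1 Mb, for 120 they lay on other chromosomes, for 51 on unplaced sequences and for 10 farther along the same chromosome.

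By the place of their copies the sites were divided into 7 exclusive classes. There were 57 sites in the 45S rDNA arrays of chromosome 21, 12 fragments of the transcribed 45S unit elsewhere, 6 at the 5S rDNA array, 34 in clusters of copies over 200 bp apart, 35 in tandem repeats with a unit of up to 200 bp, 99 others within 1 Mb of an assembly gap and 70 with dispersed copies.

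The 45S arrays encode the precursor of 18S, 5.8S and 28S rRNA and are transcribed by RNA polymerase I in the nucleolus. The unit between neighbouring 45S starts is 44187 bp, of which 13309 bp are transcribed, and 4 starts could be placed on the short arm. Of the 57 sites, 29 had their centre in the transcribed part, 7 in the 3 kb before the start and 21 in the intergenic spacer. The spacer sites did not fill the unit evenly: none had its centre between 19998 and 30506 bp from the start. The unit was called in every list, with 125, 76, 99 and 56 peaks in placed units in the LAP-Smad3 TGFβ-1, LAP-Smad2 TGFβ-1, LAP-Smad2 untreated and LAP-Smad3 untreated lists. A further 13, 5, 3 and 0 peaks lay beside the units within the array window, and none of these was a site.

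Fold enrichment is the ratio of reads at the summit to the local background as MACS2 reports it. It is set here against the median of the same list because lists are not on a common scale. In the other 3 lists, the fold and −log10 q given for a site are those of the peak that overlaps it most. The summit of that peak can lie outside the site, and sites under the same peak share its values. Over the 57 array sites the median fold was 4.81 in the LAP-Smad3 TGFβ-1 list, whose own median was 4.97. It was 8.01 in the LAP-Smad2 untreated list, against a list median of 6.02. It was 1.965 in the LAP-Smad2 TGFβ-1 list, against 3.98, and 1.87 in the LAP-Smad3 untreated list, against 3.87. The array sites were therefore near or above the list median in the LAP-Smad3 TGFβ-1 and LAP-Smad2 untreated libraries and below it in the other pair. Over the array sites the libraries fall into pairs by the Smad in their deposited peak names, not by the Smad in their labels. Other sequences differed: the REXO1L sites described below divided the same way, and the 42 sites of chromosome 1 did not. The reason was not tested.

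**Figure D4:**
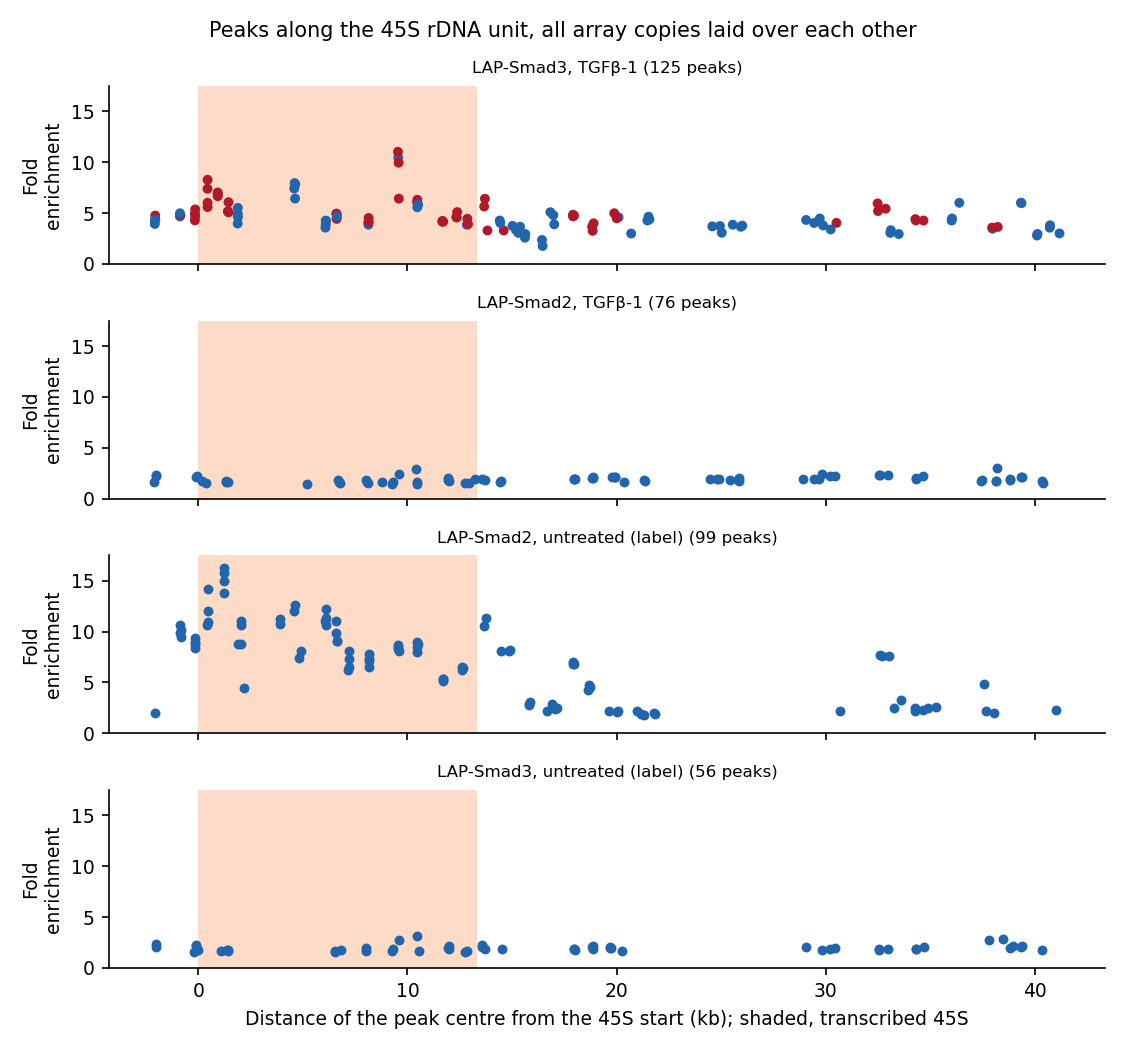
Each point is a peak in a placed 45S unit, with its fold enrichment against the distance of its centre from the nearest placed 45S start in kb; the shaded part is transcribed, and red points in the top panel are sites in all 4 lists. Peaks in the LAP-Smad2 TGFβ-1 and LAP-Smad3 untreated panels stay at or below 3.14 (peaks beside the units, with folds of 3.19 to 5.73 in the LAP-Smad2 TGFβ-1 list, are not drawn), while those over the transcribed part reach 11.03 and 16.2 in the other panels.

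The strongest sites were rDNA. The 5 with the highest −log10 q in the LAP-Smad3 TGFβ-1 list were all on the short arm of chromosome 21. The first, chr21:8398146-8399019 near RNA5-8SN3, had a −log10 q of 129 and fold values of 11.03 in the LAP-Smad3 TGFβ-1, 1.66 in the LAP-Smad2 TGFβ-1, 8.26 in the LAP-Smad2 untreated and 1.82 in the LAP-Smad3 untreated list. The second, chr21:8259342-8260212, lay at the matching place of another unit and had fold values of 9.95, 2.38, 8.68 and 2.71 in the same order. These values repeat the division of the libraries seen over the whole array. The third and the fifth, chr21:8433975-8434339 and chr21:8206285-8206585, lay in the first kb of the transcribed unit, with folds of 6.65 and 8.27 in the LAP-Smad3 TGFβ-1 list. The fourth, chr21:8988156-8988740 beside MIR3648-2, was a 585-bp piece of 45S sequence outside the arrays, 99.7% identical to the unit, and its folds were 9.10, 6.27, 14.4 and 6.35.

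Fragments of the transcribed 45S unit elsewhere made up 12 sites, 9 of them off chromosome 21. They lay in introns of HFM1, DLG2, PDE3A, SLCO5A1 and a lncRNA gene on chromosome 12, in MIR663AHG, and in intergenic sequence of chromosomes 5, X and 21. Their identity to the unit ran from 88.3% at DLG2 to 100% over 148 bp at PDE3A. The HFM1 site, chr1:91387190-91387639, matched 366 bp of the 28S part at 99.7%. Its fold values were 6.88, 13.0, 8.97 and 13.3 in the LAP-Smad3 TGFβ-1, LAP-Smad2 TGFβ-1, LAP-Smad2 untreated and LAP-Smad3 untreated lists. Between the TGFβ-1 lists the order was mostly the opposite of that in the arrays. The fold was higher in the LAP-Smad3 than in the LAP-Smad2 TGFβ-1 list at 57 of 57 array sites but at 2 of 12 fragments. Over all sites it was higher at 190 of 313. The fragments were not alone: the counts were 39 of 99 for the others near a gap and 15 of 35 for short tandem repeats. They were 31 of 34 for clustered copies, 43 of 70 for dispersed copies and 3 of 6 at the 5S array. Many array sites are copies of each other or share an overlapping peak, so these are not counts of independent sites. The medians of the whole LAP-Smad3 and LAP-Smad2 TGFβ-1 lists were 4.97 and 3.98. The median folds of the fragments were 5.27, 8.70, 6.97 and 7.17, each above its list median, but 6 of the 12 fragments lay below that median in the LAP-Smad3 TGFβ-1 list and 3 in the LAP-Smad2 untreated list, against 0 in the other pair. How reads with several equally good places were assigned is not given in the sources used here, and its part in this difference was not tested.

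The 5S rRNA array on chromosome 1, which RNA polymerase III transcribes, held 6 sites between 228556371 and 228645443. Of these, 3 lay within 3 kb of starts of RNA5S genes and 3 within 3 kb of those of the pseudogenes RNA5SP162 and RNA5SP19. The repeat spacing at the sites near RNA5S1 and RNA5S2 was 2241 bp. Median folds over the 6 sites were 5.13, 4.04, 12.8 and 4.01 in the LAP-Smad3 TGFβ-1, LAP-Smad2 TGFβ-1, LAP-Smad2 untreated and LAP-Smad3 untreated lists. The U2 snRNA genes, which encode an RNA of the spliceosome, form another tandem array on chromosome 17, with 3 sites between 43246370 and 43279527 inside CCDC200 and 10 copies of the underlying words.

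The largest cluster of gene copies outside the rDNA was REXO1L on chromosome 8, a tandem family of exonuclease-like pseudogenes. It held 12 sites, 11 of them named by REXO1L genes and 1 at an unnamed gene of the same family of sequences, at a median spacing of 12187 bp. The peaks there were broad, 2010 to 3159 bp wide for the 11, against a median width of 463 bp over all sites. Their fold in the LAP-Smad3 TGFβ-1 list ran from 5.62 through a median of 15.0 to 24.5, which was the highest fold of any site in that list. In the LAP-Smad2 TGFβ-1 list it ran from 2.59 to 4.63, in the LAP-Smad2 untreated list from 5.69 to 16.8 and in the LAP-Smad3 untreated list from 2.48 to 4.002. The medians of the whole lists were 4.97, 3.98, 6.02 and 3.87 in the same order. The 11 sites are copies of each other in 1 library per condition, so their ranges describe these libraries only.

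Short tandem repeats held 35 sites, with a median unit of 46 bp. The widest was in BRF1, which encodes a subunit of an RNA polymerase III initiation factor: chr14:105229651-105236732, 7082 bp wide, made of a 102-bp unit. Its words occurred 97 times at the median, and its fold in the LAP-Smad3 TGFβ-1 list was 12.6. A site on chromosome 4, chr4:181239098-181241845, with a 51-bp unit, had a fold of 20.8 there, and a site in SDK1 with a 51-bp unit had 17.9.

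The 42 sites of chromosome 1 had low folds. Their fold in the LAP-Smad3 TGFβ-1 list lay between 1.42 and 2.52, with medians of 1.945, 1.969, 3.757 and 1.962 in the LAP-Smad3 TGFβ-1, LAP-Smad2 TGFβ-1, LAP-Smad2 untreated and LAP-Smad3 untreated lists. The median over them of the share of bases inside GGAAT or ATTCC was 25%, and their mean GC content over 200 bp was 36.8%. A family of 11 sites on 5 chromosomes, including chromosomes 4, 20 and Y, had 65.3% of its bases in these words, which are the core of human satellite DNA, and folds of 1.60, 2.86, 3.596 and 2.79.

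**Figure D5:**
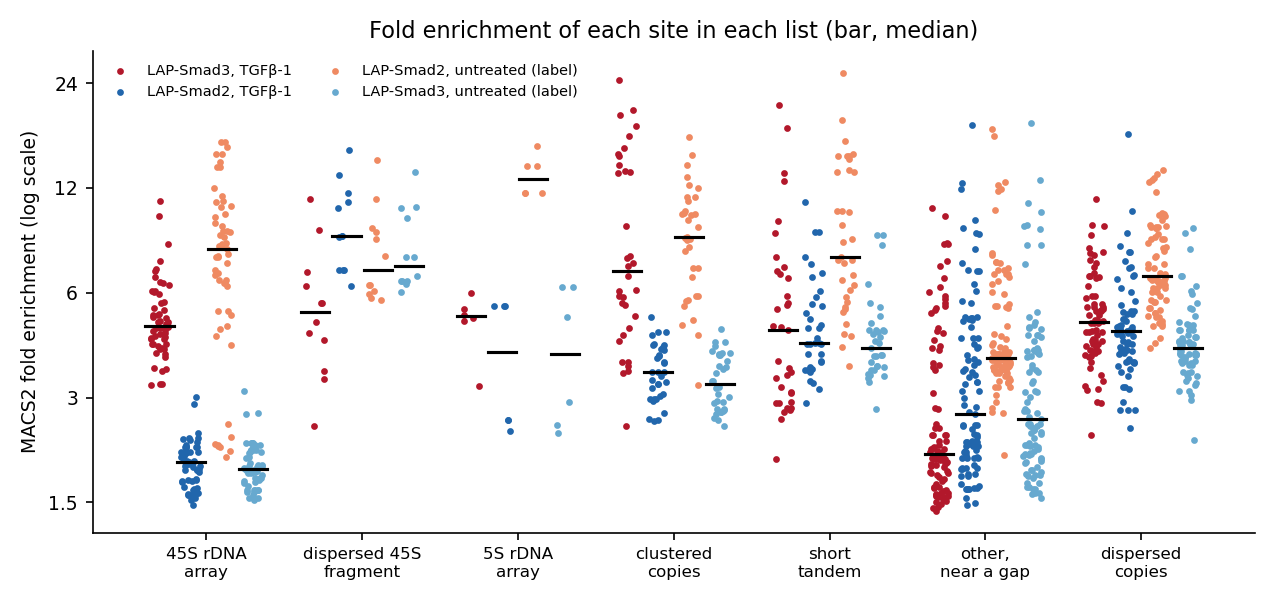
Each point is a site, with its MACS2 fold enrichment on a log axis in each of the 4 lists, and bars give the median of each sequence class. In the 45S arrays the medians were 4.81 and 8.01 against 1.965 and 1.87, while in the dispersed 45S fragments all 4 medians lay between 5.27 and 8.70.

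The sites were ranked high in the lists that hold them. The median −log10 q of the sites was 10.7, 13.4, 24.2 and 9.10 in the LAP-Smad3 TGFβ-1, LAP-Smad2 TGFβ-1, LAP-Smad2 untreated and LAP-Smad3 untreated lists, whose own medians were 4.43, 4.66, 6.35 and 5.42. Of the 100 peaks with the highest −log10 q, 54, 24, 44 and 21 were among the peaks found in all lists. Such peaks made up 0.500%, 1.14%, 2.56% and 8.26% of the 4 lists, with 313, 306, 288 and 290 of their own peaks. The overlap rule used the same peaks as these scores, so they describe the sites and are no support for them. In fold the sites were not unusual, with a median of 4.54 in the LAP-Smad3 TGFβ-1 list.

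Gene starts near the sites were mostly not protein-coding. A start of any annotated transcript lay within 3 kb of 130 sites, 41.5% (36.2 to 47.1), against 32.8% (32.4 to 33.2) of the other peaks. Of the 130, 35 lay in the 45S arrays, and without the arrays the share was 37.1% (31.4 to 43.2), an interval that holds that of the other peaks. A protein-coding start lay within 3 kb of 23 sites, 7.35% (4.95 to 10.8), against 14.2% (13.9 to 14.4) of the others. The centre of 48 sites was exonic, of 120 intronic and of 145 intergenic. A start of an rRNA gene or rRNA pseudogene lay within 3 kb of 14 sites, and a start of an snRNA, snoRNA, miRNA or miscellaneous RNA within 3 kb of 30, of which 25 were near a miRNA such as MIR3648-1 in the 45S units. The 23 sites, counted at starts of protein-coding transcripts, covered 28 genes. With the starts of all transcripts of protein-coding genes counted, 33 of 20007 such genes, or 0.165%, had a site within 3 kb. By the same count 40.3% had a peak of the LAP-Smad3 TGFβ-1 list there. Of 87 protein-coding histone genes, 0 had a site and 47, or 54.0%, had a peak. Of 20 TGFβ target genes, among them SMAD7, SKIL and ID1, 0 had a site and 11, or 55%, had a peak. At the share over all genes, lists of these sizes would hardly hold a site, so the counts of 0 say nothing particular about either list. No site lay within 100 kb of SMAD2 or SMAD3, the genes carried by the BACs.

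All 23 sites at protein-coding starts were multi-copy, and most belonged to duplicated gene families. The X-linked GAGE12 genes, which are cancer/testis antigens, held 5 sites with 11 copies at a spacing of 9553 bp. TAF11L genes on chromosome 5, related to a subunit of the general transcription factor TFIID, held 3 sites with 9 copies 3434 bp apart. PRR20 genes on chromosome 13 held 2 sites with 5 copies. Protocadherin beta genes on chromosome 5, which encode cell adhesion molecules, held 4 sites, at PCDHB6, PCDHB7, PCDHB8 and PCDHB10. CTAGE genes on chromosomes 6 and 7 held 4 sites with 5 copies. FAM90A15P held 1 site with 19 copies.

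In all 6 families the median folds in the LAP-Smad3 TGFβ-1 and LAP-Smad2 untreated lists lay above those in the other pair, which is also the order of the medians of the whole lists. The highest median was in the LAP-Smad3 TGFβ-1 list in 3 families and in the LAP-Smad2 untreated list in the other 3. At TAF11L they were 13.4 to 20.1 in the LAP-Smad3 TGFβ-1 list, 2.93 to 3.56 in the LAP-Smad2 TGFβ-1 list, 4.52 to 4.99 in the LAP-Smad2 untreated list and 2.63 to 3.01 in the LAP-Smad3 untreated list. At CTAGE they were 8.33 to 10.5, 5.03 to 8.01, 5.42 to 7.36 and 3.92 to 4.74. At GAGE12 the highest folds were in the LAP-Smad2 untreated list, 7.06 to 12.2, against 3.81 to 7.30, 3.33 to 4.12 and 3.63 to 4.04 in the LAP-Smad3 TGFβ-1, LAP-Smad2 TGFβ-1 and LAP-Smad3 untreated lists. The other 4 protein-coding starts were not in an array of genes. C1QTNF12 had the 66-bp tandem shown above, GLT8D2 and GTF2A1L lay on words with a median of 3 and 4 occurrences, and CLEC2L on words with a median of 46.

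With multi-copy sequence set aside, 17 sites remained, and 0 of them lay at a protein-coding start. As a share of all sites this is 0 of 313, which allows up to 0.958%, taken as 3 counts of 313. Among the 17 single-copy sites themselves, a count of 0 limits the share only loosely. Among the other peaks of the list, 23742 were single-copy. Of these, 5763 lay within 3 kb of a protein-coding start, 9.26% of all the other peaks. The share of all peaks was 9.96% in 1 list, 6.06% in 2 lists and 1.66%, or 32 peaks, in 3 lists. Among peaks in 3 lists the counts differed by the missing list. Of the 280 peaks missing only from the LAP-Smad2 untreated list, 29 were single-copy and at a protein-coding start. This is near the share over all peaks of the list, 9.21%. Of the 1632 missing only from the LAP-Smad3 untreated list, 3 were, which is below that share.

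The 17 single-copy sites were themselves mostly diverged copies of repeated sequence, with repeated shares of 12.6% to 50%. When each was aligned to hg38 with blastn, 15 had another match of at least 80% identity over at least 50% of the site. Of the 17, 4 were the 45S fragments in DLG2, on chromosome 12 and in MIR663AHG. A further 3 were AT-rich, with a GC content of 21% or 21.5%, beside the centromeres of chromosomes 3, 4 and 8. Another 2, on chromosomes 5 and Y, had over 50% of their bases in GGAAT or ATTCC, 2 on chromosome Y lay beside DUX4L19, and 2, in OPRL1 and EXD3, were short tandem repeats.

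The AT-rich site on chromosome 3, chr3:93470295-93470871, had the highest −log10 q of all sites in the LAP-Smad2 TGFβ-1 list, 339, and in the LAP-Smad3 untreated list, 343. Its folds were 2.80, 18.2, 4.56 and 18.4 in the LAP-Smad3 TGFβ-1, LAP-Smad2 TGFβ-1, LAP-Smad2 untreated and LAP-Smad3 untreated lists. It had 166 other matches of at least 80% identity.

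The other 4 single-copy sites were those on chromosome 2, chr2:132361015-132361334, and chromosome 12, chr12:95969108-95969308, with 7 and 1726 such matches, and the pair without any. The site in an intron of PARN, chr16:14486886-14487248, held 108 bp, 29.8% of its length, identical to the 45S spacer at chr21:8224077-8224184. Its folds were 3.93, 17.1, 4.30 and 9.19. The site chr3:94937939-94938151 in an exon of LINC00879, beside the pseudogene WDR82P1, had the fewest repeated words, and its best other match was WDR82 on the same chromosome at 79.7% identity. Its folds were 5.44, 4.51, 9.37 and 4.37. A start lay within 3 kb of 5 of the 17 sites: those in MIR663AHG, LINC00879 and beside DUX4L19.

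Of the 5 motifs searched, GGCGCC and CANNTG were in a smaller share of the sites than of the other peaks, outside the Wilson intervals. For the other 3 no difference was detectable with 313 sites. The intervals take the sites as independent, although the 313 fell into 125 sequence families whose copies can carry a motif together. Motifs were not counted per family, so the intervals are too narrow to judge these differences. CAGAC, the Smad-binding element, read on both strands in the 200 bp around the centre, was in 29.4% (24.6 to 34.7) of the sites, in 34.5% of the other peaks and in 33.1% of 78449 windows of the same length on protein-coding starts. Outside the 45S arrays CAGAC was in 33.6% (28.1 to 39.6) of the sites. The palindrome GTCTAGAC was in 0 of 313 sites, which allows a share of up to 0.958% by the same limit of 3 counts, in 0.0530% of the other peaks and in 0.0637% of the start windows. GGCGCC was in 12.8% (9.53 to 16.9) of the sites, 24.9% of the other peaks and 17.6% of the start windows. TGANTCA, the AP-1 element, was in 1.60% (0.684 to 3.68), 2.63% and 3.73%, and CANNTG, the E-box, in 44.7% (39.3 to 50.3), 55.7% and 52.5%, in the same order. Mean GC content was 59.3% ± 14.3 (SD over 313 sites) against 58.5% ± 5.99 over the other peaks, so the sites had a close mean but a wider spread, with AT-rich satellites and GC-rich rDNA in 1 set.

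At the edge of the rule, the smallest overlap was 1 bp, at chr3:186811658-186811879 and chr4:32716236-32716504, and 17 sites had an overlap under 50 bp with some list. The median of the smallest overlap was 245 bp. The nearest miss was chr15:63098270-63098495, which lay 2 bp from a peak of the LAP-Smad3 untreated list. Of the 1922 peaks in 3 lists, 1632 were missing from the LAP-Smad3 untreated list, the shortest with 3511 peaks, 280 from the LAP-Smad2 untreated list and 10 from the LAP-Smad2 TGFβ-1 list.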

How the data were processed

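Anti-GFP ChIP-seq was performed in 4 conditions with 1 library each. Bowtie2 was used by the authors for alignment to hg38, and MACS2, with reads extended to 200 bp and a q-value threshold of 0.05, for peak calling. bedtools is also named in the submitters' processing notes. The lists were deposited with the fold enrichment (a ratio), the −log10 p-value and q-value, the summit offset and a display score per peak. Versions, the control library and the handling of multi-mapping reads are not given in the sources used here. For reads, the study's methods state only a minimum aimed for, and the lists hold no totals, so depth per library is unknown.

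Peaks were compared with Python 3.11.15, numpy 2.4.6, pandas 2.3.3 and numba 0.67.0, on simulated data first. Words of 31 bases were counted in hg38 without alternative sequences, and starts came from GENCODE release 44. No repeat annotation was used. rDNA units were taken from RefSeq, and copies were aligned with blastn 2.17.0 and minimap2 2.31. A dispersed 45S fragment matched the transcribed unit over at least 30% of its length at 85% identity or more. Clustered and tandem sites had at least 90% of their other copies within 1 Mb, counted from words with at most 2000 occurrences. Genes at single-copy sites, the 5 strongest sites and genes of the fixed lists were named, and others were chosen after their values were seen. The members and lists were chosen with earlier results of these data known. The 95% intervals (Wilson) cover only counting error.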

Additional observations from a re-analysis of the deposited data

How the results depend on the processing

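No paired analysis was possible because each condition had 1 library and no test was run. The number of sites, 313, was 81 with an overlap of at least 50% of both peaks, 78 with summits within 100 bp, 593 without the LAP-Smad2 untreated list, 1945 without the LAP-Smad3 untreated list and 125 with 1 site per sequence family. The multi-copy share, 94.6%, was 91.0% with summits within 100 bp, 82.8% and 97.5% without the LAP-Smad2 and the LAP-Smad3 untreated list, 100% when over 0.1 of the words sufficed, 97.8% with 24-base words, 99.4% with blastn matches counted and 88% with 1 site per family. The share within 3 kb of a start, 41.5%, was 34.6% with an overlap of 50%, 26.9% with summits within 100 bp, 27.4% without the LAP-Smad3 untreated list, 28.4% within 1 kb, 7.35% at protein-coding starts and 48.8% with 1 site per family. The count of 0 single-copy sites at protein-coding starts became 29 without the LAP-Smad2 untreated list, 3 without the LAP-Smad3 untreated list and 5 at starts of any transcript, and it stayed 0 in the other 16 alternatives. The blastn, family and array settings were chosen after seeing the data. Copies that hg38 lacks were not counted.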

Other observations

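The 29 single-copy peaks at protein-coding starts that appeared when the LAP-Smad2 untreated list was not required were in both TGFβ-1 lists and in the LAP-Smad3 untreated list. They were among 280 peaks that were in these 3 lists only. Over all peaks of the LAP-Smad3 TGFβ-1 list, 9.21% were single-copy and at a protein-coding start, and 29 of 280 is near that share. Of the 29, 22 had no repeated 31-base word, and all 29 had folds of 3.50 to 7.58 in the LAP-Smad3 TGFβ-1 list. They included LRRC1, a scaffold protein, MAPK14, the p38α kinase, SPTAN1, a spectrin, HLA-E, a class I histocompatibility gene, and CCND3, a D-type cyclin. On chromosome 6, 14 of the 29 lay between 27312306 and 53796178, and the reason was not tested. The whole of chromosome 6 held 3880 of the 62551 peaks of the list. The share of all single-copy peaks at protein-coding starts that lay in this stretch was not counted.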
